A study of Ovis aries with 26 samples.

Results

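ANKRD1, CYR61, CTGF, AMOTL2 and AJUBA were followed by name through single cells of the sheep pancreas. They are 5 of the 24478 genes in the count files, and all 5 were present, with CYR61 and CTGF (also called CCN1 and CCN2) under their older symbols. They were grouped as genes linked to the transcriptional co-activators YAP and TAZ, and they were measured in 79510 of 109501 cell barcodes, kept for having over 200 but under 6000 detected genes, with mitochondrial genes giving less than 25% of their unique molecular identifiers (UMIs). The set was selected on levels measured in these same cells, with earlier results known, and ANKRD1, CYR61, CTGF and AMOTL2 are among the genes that the study lists as markers of duct cells. The levels across cell types and all values of ANKRD1 are therefore a description and carry no test.

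The study asked how loss of the chloride channel CFTR alters the pancreas before birth. The data are 26 droplet (10x Genomics 3′) libraries from 23 American Romney sheep, 3 of which gave 2 separately processed samples, with 1 library a sample. At 80 days of gestation the controls were 4 male fetuses, 2 wild type (WT, replicates 1 and 3) and 2 heterozygous CFTR+/- (HZ, replicates 2 and 4), and they were compared with 3 male CFTR-/- fetuses. At 120 days there were 3 WT fetuses, 1 of them female, 4 male CFTR-/- fetuses and 2 female CFTR-/- fetuses. At term there were 4 WT lambs, 1 of them female, and 3 CFTR-/- lambs, replicates 1 and 2 female and replicate 3 male. All CFTR-/- animals carried alleles targeted at exon 2. Per the study's methods the male CFTR-/- animals were clones made by nuclear transfer from 1 fibroblast line, so they share 1 donor genome, whereas WT animals and the CFTR-/- females were naturally bred. Sex and breeding therefore cannot be told apart among the CFTR-/- fetuses at 120 days. Cloning cannot be told apart from genotype at 80 days or in the comparison of CFTR-/- males with WT at 120 days. At term the sexes were spread unevenly over the genotypes, and the part of sex in the term values was not tested. Some animals were littermates per the study: the CFTR-/- females at 120 days were twins, 3 of the 4 controls at 80 days (replicates 2, 3 and 4) were triplets, and by their animal numbers WT replicates 1 and 2 at 120 days, CFTR-/- replicates 2 and 3 at 80 days and CFTR-/- male replicates 2 and 3 at 120 days each shared a pregnancy number, so n counts animals and not litters. The HZ allele was one targeted at exon 11. Every pancreas was digested with enzymes before the cells were captured.

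YAP and TAZ carry the output of the Hippo pathway. The kinases MST1/MST2 (genes STK4 and STK3) and LATS1/LATS2 phosphorylate them and hold them in the cytoplasm. When the kinases are inactive, as in spread or stretched cells, YAP and TAZ enter the nucleus and bind the TEAD factors, which switch on genes such as ANKRD1, CYR61 and CTGF. ANKRD1 encodes an ankyrin repeat protein best known from stressed heart muscle. CYR61 and CTGF encode secreted CCN proteins of the extracellular matrix. AMOTL2 is a junctional scaffold of the angiomotin family that binds YAP and restrains it, and AJUBA is a LIM-domain protein that binds LATS kinases. In the pancreas YAP is known to be active in progenitors and ducts and low in mature acinar and endocrine cells.

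Libraries held 7841217 to 171256169 UMIs, and the median kept cell held 3425 to 24633. Of the kept cells, 73887 were assigned to 9 lineages by lists of marker genes, among them 37993 acinar-like and 10694 duct-like cells, and no doublets were removed. The leading genes of the duct-like cells included their own markers together with ANKRD1 and CTGF, neither of which had been used to pick the cells. CFTR-/- male replicate 3 at 120 days was the weakest sample, with 943 kept cells and 80 duct-like cells, and its median duct-like cell had 17.2% mitochondrial UMIs against 4.00% to 9.64% in the other animals. No pair of libraries shared more than 12 barcodes. Levels below are UMIs of a gene per 1000000 UMIs (CPM), summed over the cells of a lineage in an animal with at least 20 such cells and without 87 ribosomal protein genes. Cells of 1 animal are not replicates, so n counts animals. The p-values rest on the spread between these animals only, estimated over all groups of a lineage together and not from the compared groups alone.

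ANKRD1 was found mainly in duct-like cells. Its mean level was 626 ± 592 CPM (SD, n = 23) in duct-like cells, with a lowest value of 37.6, a median of 485 and a highest value of 2549. It was 29.6 ± 58.3 CPM (n = 23) in acinar-like cells, where the animals ran from 0.115 to 269. Within every one of the 23 animals the duct-like cells held the highest level, from 3.65 to 626 times that of the acinar-like cells of the same animal, with a median of 49.5 times. Mean levels were 8.34 CPM in Schwann-like, 5.40 in stromal-like, 4.39 in endocrine-like, 3.66 in endothelial-like, 3.42 in mural-like (pericyte and smooth muscle), 2.48 in immune-like and 1.83 in erythroid-like cells. The ranges of these neighbours in the order overlapped, and at least 2 animals stood at 0 in each of the lineages below acinar. Duct-like cells held 82.6% of the ANKRD1 UMIs of all assigned cells and acinar-like cells, the most numerous, a further 16.2%.

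**Figure D1:**
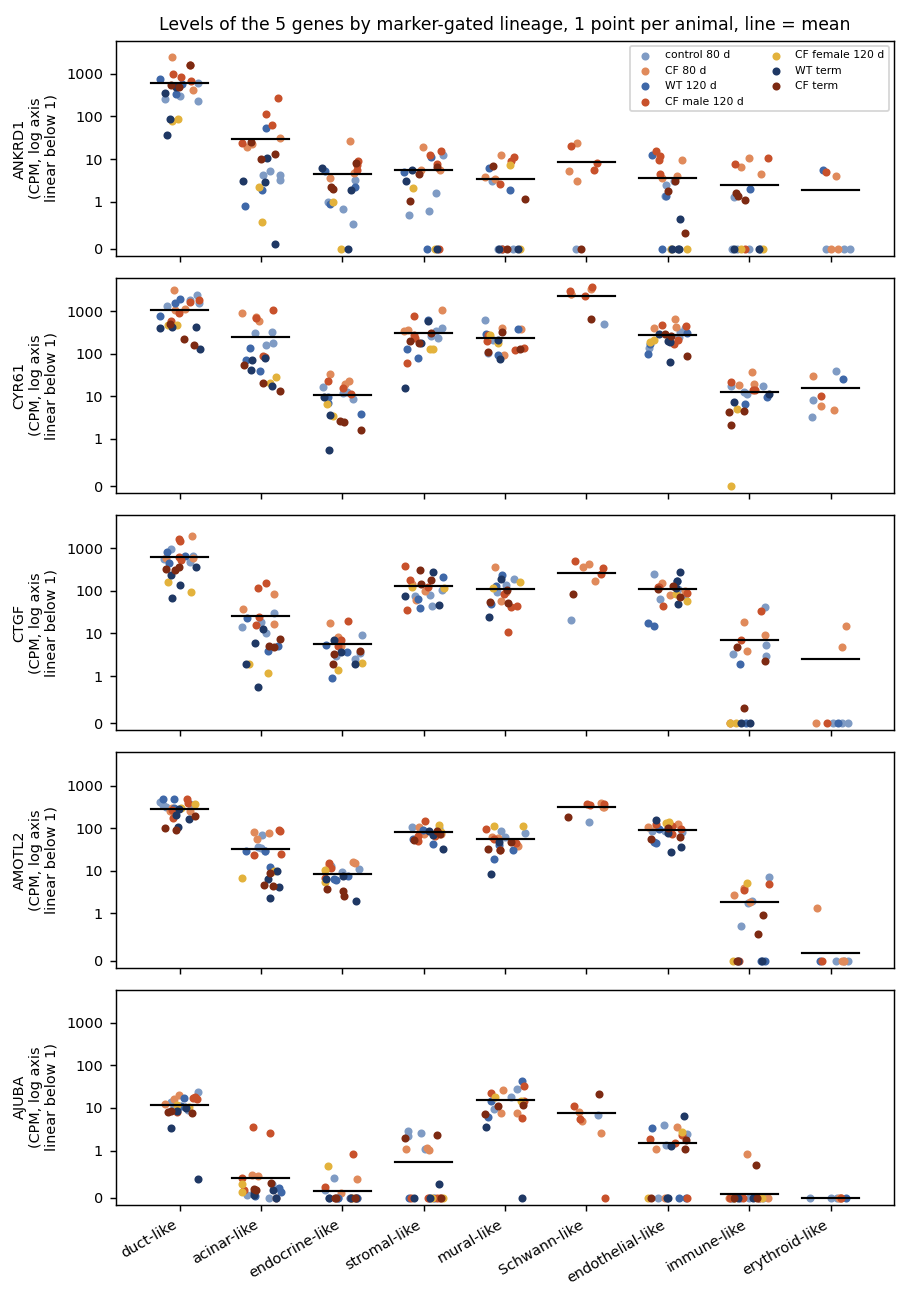
Levels of the 5 genes by lineage, 1 panel a gene, in CPM on an axis that is linear below 1 and logarithmic above it. Each point is an animal with at least 20 cells of the lineage and each line is the mean. ANKRD1 stands highest in duct-like cells in all 23 animals, whereas CYR61 and AMOTL2 have their highest means in Schwann-like cells, which come from 7 CFTR-/- animals and 1 control, and AJUBA in mural-like cells.

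The secreted targets had a wider reach. CYR61 was highest on average in Schwann-like cells, at 2305 ± 1169 CPM (SD, n = 8), and came to 1078 ± 797 CPM (n = 23) in duct-like cells. In 7 of the 8 animals that had both, the Schwann-like cells held more. These 7 were all CFTR-/-, whereas the 1 control among the 8, replicate 1 at 80 days, held 498 CPM in Schwann-like and 2407 CPM in duct-like cells. The 3 other controls at 80 days, with only 6 to 17 Schwann-like cells each, also held less there (972, 938 and 943 CPM) than in duct-like cells (1345, 1546 and 1869 CPM). The higher mean in Schwann-like cells therefore rests on the 7 CFTR-/- animals with at least 20 such cells. WT animals of later ages, with 2 to 16 Schwann-like cells each, went both ways. At 120 days replicates 2 and 3 held more in Schwann-like than in duct-like cells (3046 and 5336 CPM), and replicate 1 less (286 CPM). At term replicates 1, 2 and 4 held more (1220, 834 and 2907 CPM) and replicate 3 less (199 CPM). A link of this order to genotype was not tested. Stromal-like (312 CPM), endothelial-like (271), acinar-like (246) and mural-like cells (229) followed with overlapping ranges, and the level dropped to 15.8 CPM in erythroid-like, 12.4 in immune-like and 10.8 in endocrine-like cells. Between the mural-like and erythroid-like cells the ranges did not overlap. CTGF was highest in duct-like cells on average (610 ± 485 CPM, n = 23) and in 19 of 23 animals, with stromal-like cells ahead in 2 animals and endothelial-like cells in 2. Schwann-like cells held 269 ± 168 CPM of CTGF (n = 8), below the duct-like cells of the same animal in 8 of 8 animals. Stromal-like (134), mural-like (112) and endothelial-like cells (108) had similar CTGF levels with overlapping ranges, and acinar-like (25.6), immune-like (7.07), endocrine-like (5.56) and erythroid-like cells (2.51) had less.

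The pathway components also marked duct-like cells but shared them with other lineages. AMOTL2 measured 307 ± 94.2 CPM (SD, n = 8) in Schwann-like and 286 ± 118 CPM (n = 23) in duct-like cells, 2 ranges that overlapped, and the Schwann-like level was the higher in 6 of 8 animals, all of them CFTR-/-. The 1 control among the 8 held 136 CPM in Schwann-like and 409 CPM in duct-like cells. Of the controls with fewer than 20 Schwann-like cells, WT replicate 3 at 120 days (13 cells) held 487 CPM there. That was above the highest duct-like level of any animal (485 CPM). The others held 0 to 267 CPM there, each below its own duct-like level. Endothelial-like (90.8), stromal-like (79.4), mural-like (54.4) and acinar-like cells (31.7) lay below, followed by endocrine-like (8.48), immune-like (1.85) and erythroid-like cells (0.166). AJUBA was low everywhere. It reached 15.1 ± 10.9 CPM (n = 20) in mural-like and 11.8 ± 5.30 CPM (n = 23) in duct-like cells, again with overlapping ranges, and mural-like cells were ahead in 13 of 20 animals. Schwann-like cells held 7.44 CPM of AJUBA, endothelial-like cells 1.52, and the other lineages less than 1, with no AJUBA UMI in the erythroid-like cells of the 8 animals. Endocrine-like, immune-like and erythroid-like cells were thus the lowest group for CYR61, CTGF, AMOTL2 and AJUBA, and 8 to 21 animals stood behind each of these means.

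The share of cells with a UMI was also compared at equal depth. Cells were thinned to 2000 UMIs each, which left out 291 duct-like cells. Among the 10403 remaining duct-like cells of all animals, 38.7% had an ANKRD1 UMI (57.0% as counted), against 1.91% of acinar-like cells (6.35% as counted) and 0.339% to 1.77% in the other lineages. Immune-like cells gave 0.372% over all animals. By animal they gave 1.99% in CFTR-/- replicate 1 at 80 days (201 cells) and 3.125% in CFTR-/- male replicate 2 at 120 days (32 cells). In every other animal the share was 0.694% or less. Whether free RNA, mixed droplets or expression gave these UMIs was not tested. The median depth as counted was 10042 UMIs in duct-like cells and 7991 in immune-like cells. For CYR61 the thinned share was 57.1% in duct-like and 78.6% in Schwann-like cells, for CTGF 38.0% and 21.1%, and for AMOTL2 36.3% and 41.6%. These shares pool the animals, and most Schwann-like cells came from CFTR-/- animals. In the 4 controls at 80 days, with 6 to 25 Schwann-like cells each, the CYR61 share was 28.0%, 33.3%, 63.6% and 47.1% in Schwann-like and 82.0%, 58.3%, 72.9% and 78.7% in duct-like cells. WT animals of later ages went both ways. The Schwann-like share was 18.75% in replicate 1 at 120 days (16 cells), below its duct-like share. It was above the duct-like share in replicate 3 at 120 days (90.9%, 11 cells) and replicate 4 at term (100%, 3 cells). The other WT animals of these ages had 1 or 2 such cells each. AJUBA was seen in only 2.12% of duct-like and 2.92% of mural-like cells at this depth.

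**Figure D2:**
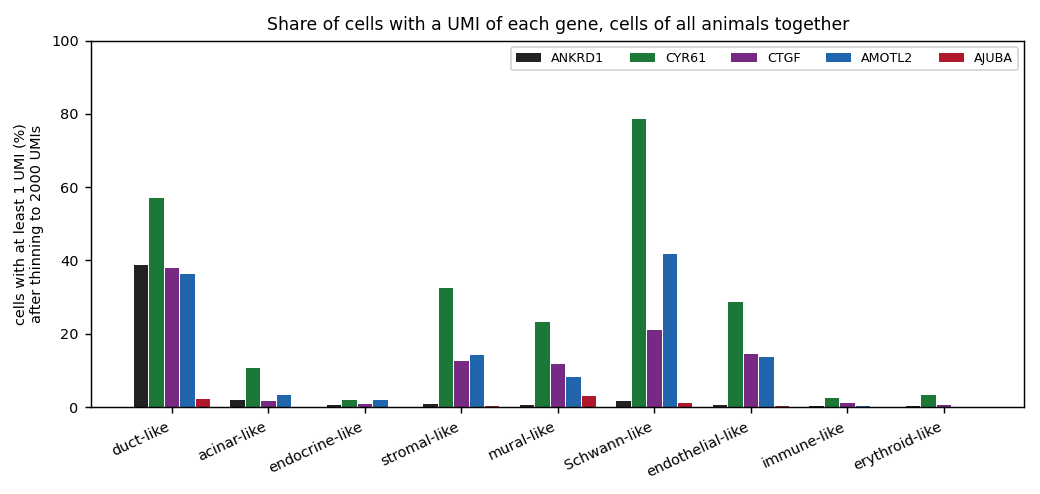
Share of cells with at least 1 UMI of each gene, in percent, after every cell was thinned to 2000 UMIs, with 1 bar per lineage and the cells of all animals pooled. ANKRD1 reaches 38.7% in duct-like cells and stays at or below 1.91% elsewhere, whereas CYR61 reaches 78.6% in Schwann-like cells, most of which came from CFTR-/- animals.

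The ANKRD1 level of acinar-like cells was set beside that of other duct genes in the same cells. As a percentage of the duct-like level of the same animal, acinar-like cells held a median of 2.02% for ANKRD1 (0.160% to 27.4%), 1.00% for the protease gene MMP7, 1.83% for the bicarbonate transporter gene SLC4A4, 5.49% for the keratin gene KRT7 and 7.21% for KRT19 (n = 23). The highest animal for ANKRD1 lay above the highest for MMP7 (3.93%) and SLC4A4 (8.36%) and below that for KRT7 (28.7%) and KRT19 (31.8%). Those 4 genes were among the markers that assigned the cells, and ANKRD1 was not. The assignment itself lowers their percentages in acinar-like cells, so they cannot serve as a yardstick for ANKRD1. Whether free RNA, mixed droplets or acinar expression gave these UMIs was not tested.

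Single duct-like cells were then read for ANKRD1 and the other genes. At 2000 UMIs a cell, 61.3% of duct-like cells had no ANKRD1 UMI, the 90th percentile was 4 and the highest cell held 53. CYR61 was found more often in duct-like cells with an ANKRD1 UMI than in those without in 22 of 23 animals, with median shares of 69.1% and 51.8%. CTGF went the same way in 22 of 23 animals (46.9% and 37.8%) and AMOTL2 in 20 of 23 (43.8% and 39.6%). For AJUBA the share was higher beside ANKRD1 in 12 of 23 animals (2.48% and 2.01%), which gives no direction. Such shares were not computed for other genes, so these counts have no background to be read against. The part of mixed or weakly assigned cells in them was not tested.

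The duct-like cells were then compared between genotypes and ages. ANKRD1 had its highest group means in the CFTR-/- males at 80 and 120 days and the CFTR-/- lambs at term, and its lowest in the CFTR-/- females at 120 days. At 80 days the controls held 298 and 258 CPM (WT) and 607 and 232 CPM (HZ), and the CFTR-/- fetuses 2549, 482 and 423 CPM. The groups overlapped through the HZ fetus at 607 CPM, and 1 CFTR-/- fetus, replicate 1, stood far above all other animals. The group means were 349 ± 174 CPM (SD, n = 4) and 1151 ± 1211 CPM (n = 3), and the fitted log2 difference of 1.89 dropped to 0.44 without that fetus.

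At 120 days the WT fetuses held 344, 575 and 752 CPM of ANKRD1 and the CFTR-/- males 1620, 829, 979 and 699 CPM. These ranges overlapped, with means of 557 ± 205 CPM (SD, n = 3) and 1032 ± 409 CPM (n = 4). In the same cells 10 acinar markers summed to 2025 to 3440 CPM in WT and 220 to 1608 CPM in CFTR-/- males, and their part was not tested. The CFTR-/- females held 79.6 and 85.9 CPM, below every WT and every CFTR-/- male fetus of that age. They were twins, so these values come from 1 pregnancy. Their duct-like cells also had fewer UMIs (medians of 7055 and 7057 against 8856 to 10112 in WT) and more mitochondrial UMIs (8.52% and 8.59% against 4.88% to 7.09%). The 8 duct markers summed to less (3957 and 4322 CPM against 4561 to 6178 CPM). Stromal markers summed to more (61.5 and 84.7 CPM against 42.0 to 49.8 CPM). Endothelial markers (2.73 and 4.66 CPM against 9.37 to 30.8 CPM) and endocrine markers (281 and 319 CPM against 321 to 466 CPM) summed to less. The part of all of these in the ANKRD1, CYR61 and CTGF values was not tested. The 2 CFTR-/- females at term were also naturally bred and held 1597 and 541 CPM. At term the WT lambs held 363, 485, 37.6 and 86.0 CPM and the CFTR-/- lambs 1597, 541 and 486 CPM. Each CFTR-/- lamb was above each WT lamb, but replicate 3 exceeded the highest WT lamb by only about 1 CPM (486.0 against 485.0), and 1 of its 2 libraries, at 473 CPM, was below that WT lamb. The 8 duct markers moved alongside, summing to 10166 to 13949 CPM in CFTR-/- and 5815 to 9295 CPM in WT lambs, and median UMIs per duct-like cell were 10110 to 11555 and 5383 to 9363. At 80 days the duct markers summed to 4665 to 5279 CPM in CFTR-/- fetuses and 3321 to 3913 CPM in controls, and 10 acinar markers in the same cells to 446 to 753 and 864 to 1548 CPM. The part of these markers and depths in the genotype differences was not tested. The fitted log2 differences were 0.83 for males at 120 days, -2.83 for females at 120 days and 1.88 at term, the last with a range of 1.10 to 2.48 as each animal was left out.

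**Figure D3:**
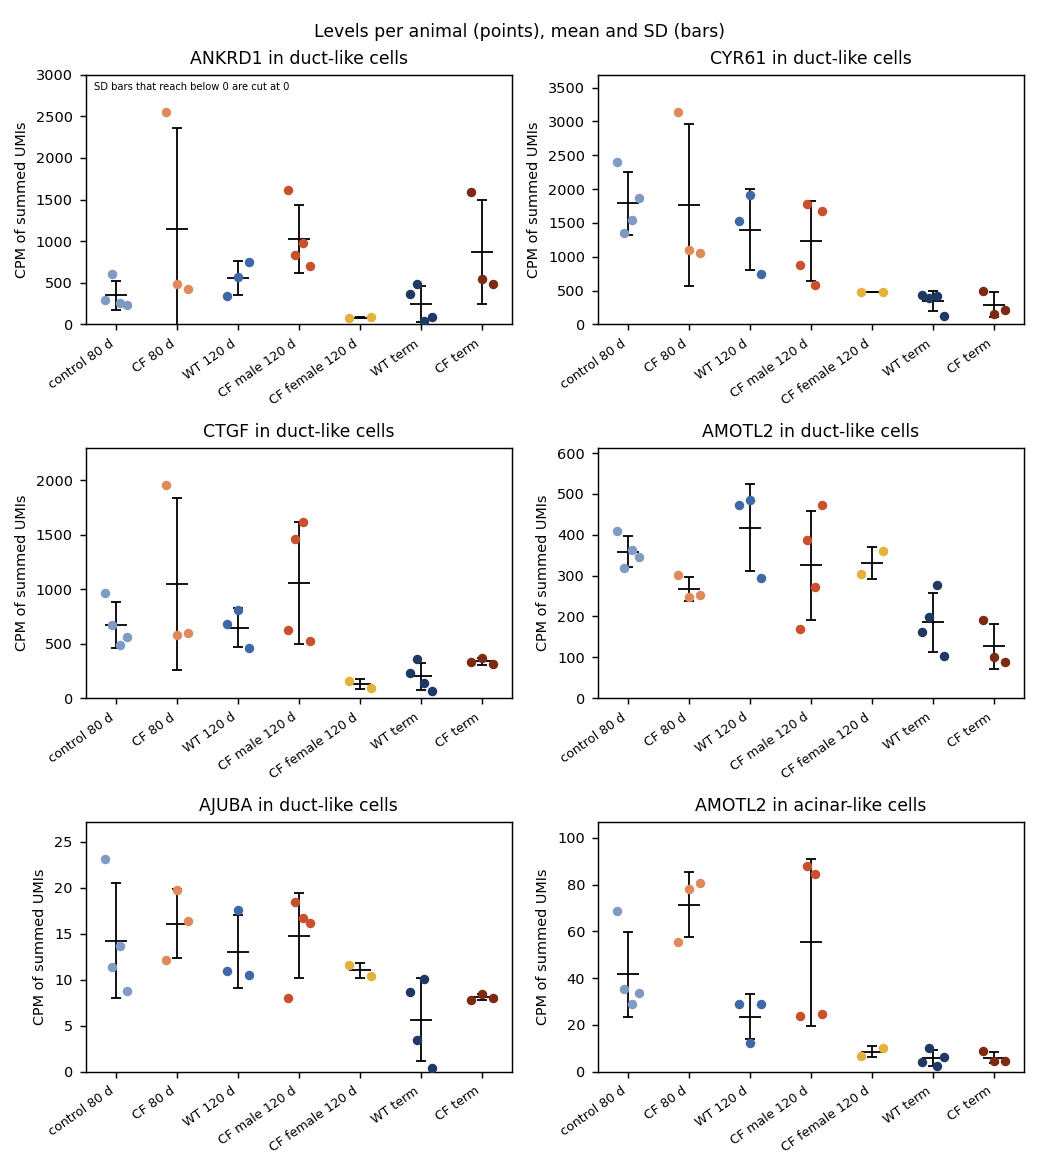
Levels in CPM by group, with 1 point per animal and the mean and SD beside the points. The first 5 panels show the 5 genes in duct-like cells and the last shows AMOTL2 in acinar-like cells. ANKRD1 of the 2 CFTR-/- females at 120 days (79.6 and 85.9 CPM) lies below all other animals of that age, and AMOTL2 of the WT lambs at term lies below that of WT fetuses at 120 days in both lineages.

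The share of duct-like cells with ANKRD1 was also read at equal depth. It was 19.4% to 25.8% in the controls and 39.9% to 72.9% in the CFTR-/- fetuses at 80 days. At 120 days it was 23.2% to 44.8% in WT fetuses and 33.7% to 63.7% in CFTR-/- males. In the CFTR-/- females it was 10.9% (95% Wilson interval 8.23% to 14.4%, 393 cells) and 9.43% (7.08% to 12.5%, 456 cells), where the interval covers counting error only. At term it was 5.29% to 39.7% in WT and 41.8% to 61.0% in CFTR-/- lambs. Such shares were not computed for all genes, so the separation of the groups at 80 days and at term has no background to be read against. Where an animal had given 2 separate samples, the ANKRD1 levels of their libraries were 1793 and 1422 CPM, 1588 and 1605 CPM, and 473 and 498 CPM. The first pair differed by more than some animals of 1 group did.

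The other 4 genes were tested against genotype in duct-like cells with a fit across all 13247 genes (edgeR's quasi-likelihood test with Benjamini-Hochberg adjustment), and none passed an adjusted p of 0.05. These 4 genes, and the gene lists read further below, were chosen with earlier results of these data known. Their p-values are therefore not those of genes fixed in advance. At 80 days 0.876% of all genes passed, 0.0151% in CFTR-/- males at 120 days, 0% in CFTR-/- females and 2.6% at term. In the females 1454 genes had an unadjusted p under 0.05, and DESeq2 called 157.

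At 80 days CYR61 was 2407 and 1546 CPM in WT, 1345 and 1869 CPM in HZ and 3145, 1094 and 1059 CPM in CFTR-/- fetuses. These groups overlapped, and the log2 difference was 0.10 (SE 0.50, edgeR adjusted p = 0.97). CTGF was 964 and 485 CPM in WT, 670 and 557 CPM in HZ and 1953, 581 and 598 CPM in CFTR-/- fetuses. CFTR-/- replicate 1 was again the highest for both, and without it the CTGF difference turned from 0.77 (SE 0.49, edgeR adjusted p = 0.57) to -0.14 and that of CYR61 to -0.70. AMOTL2 showed the opposite placement, with 302, 247 and 254 CPM in the CFTR-/- fetuses, all below the controls at 409 and 362 CPM (WT) and 319 and 345 CPM (HZ). Its log2 difference was -0.34 (SE 0.33, edgeR adjusted p = 0.74), and 12.9% of all genes had CFTR-/- fetuses wholly below the controls. AJUBA ran from 8.76 to 23.1 CPM in controls and from 12.2 to 19.7 CPM in CFTR-/- fetuses.

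At 120 days the CFTR-/- females had the lowest CYR61 and CTGF of their age. CYR61 was 473 and 474 CPM in the females, 1535, 1920 and 747 CPM in WT and 883, 1782, 584 and 1671 CPM in CFTR-/- males. CTGF was 160 and 94.4 CPM in the females, 676, 804 and 457 CPM in WT and 627, 1462, 1614 and 523 CPM in CFTR-/- males. Among the 4 tested genes the females thus lay wholly below WT for CYR61 and CTGF. That placement also held for 15% of all genes in this comparison of 2 against 3 animals. ANKRD1 of the females lay below WT too, but its values are a description and are not counted here. The log2 difference to WT was -2.38 for CTGF (SE 0.65, edgeR adjusted p = 0.22) and -1.59 for CYR61 (SE 0.64, adjusted p = 0.36). DESeq2 called CTGF, with an adjusted p of 0.0147. AMOTL2 and AJUBA of the females stood inside the WT range, at 303 and 359 CPM and at 11.6 and 10.4 CPM, except that the lower AJUBA value was just under the lowest WT value. In CFTR-/- males all 4 genes overlapped WT, with log2 differences of -0.15 for CYR61, 0.66 for CTGF, -0.36 for AMOTL2 and 0.16 for AJUBA (edgeR adjusted p between 0.66 and 0.96). Overlap was the common outcome there, since only 9.47% of all genes did not overlap.

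At term CYR61, CTGF, AMOTL2 and AJUBA overlapped between genotypes, while the ANKRD1 groups were apart by about 1 CPM. Only 9.19% of all genes did not overlap in this comparison. CYR61 was 431, 397, 428 and 128 CPM in WT and 498, 160 and 218 CPM in CFTR-/- lambs, with a log2 difference of -0.16 (SE 0.51, edgeR adjusted p = 0.94). CTGF was 230, 357, 140 and 66.9 CPM in WT and 328, 368 and 311 CPM in CFTR-/- lambs, a difference of 0.80 (SE 0.49, adjusted p = 0.47). The CTGF groups overlapped through WT replicate 2 alone. AMOTL2 was 161, 199, 278 and 104 CPM in WT and 190, 101 and 89.1 CPM in CFTR-/- lambs, with a difference of -0.48 (adjusted p = 0.53). AJUBA was 0.389 to 10.0 CPM in WT and 7.77 to 8.47 CPM in CFTR-/- lambs. The CFTR-/- lambs lay wholly above WT for ANKRD1, a placement that 5.62% of all genes shared. The ANKRD1 values are a description, and this placement carries no test.

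**Figure D4:**
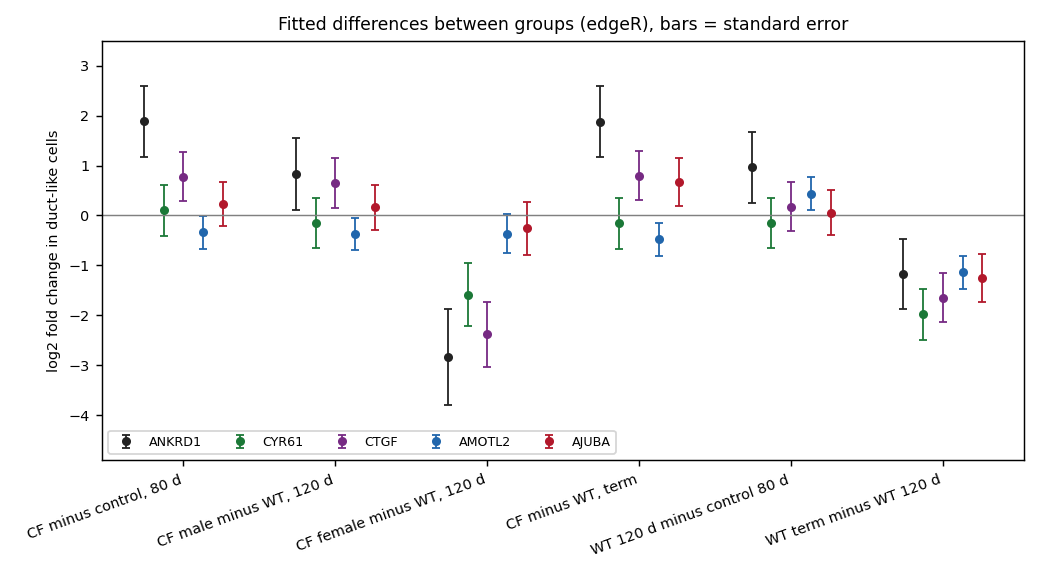
Fitted log2 differences in duct-like cells with standard errors derived from edgeR's F statistic, for the 5 genes in 4 genotype comparisons and 2 comparisons of age. No test is attached to ANKRD1. The points of CYR61, CTGF, AMOTL2 and AJUBA for WT at term against 120 days lie between -1.98 and -1.14, and the genotype points of AMOTL2 lie between -0.48 and -0.34.

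With age, the WT duct-like cells of term lambs held less of all 5 genes on average than those of 120-day fetuses. CYR61, CTGF, AMOTL2 and AJUBA were lower in all 4 term lambs than in all 3 WT fetuses of 120 days, a placement that 6.11% of all genes shared, whereas ANKRD1 overlapped. The mean of CYR61 was 1401 ± 598 CPM (SD, n = 3) at 120 days and 346 ± 146 CPM (n = 4) at term, and that of AMOTL2 418 ± 106 CPM and 186 ± 72.9 CPM. The log2 differences were -1.98 for CYR61 (SE 0.51, edgeR adjusted p = 0.062), -1.65 for CTGF (SE 0.49, adjusted p = 0.094), -1.14 for AMOTL2 (SE 0.32, adjusted p = 0.082) and -1.25 for AJUBA (SE 0.48, adjusted p = 0.19). None of the 4 passed, where 0.891% of all genes did. DESeq2 called CYR61 (adjusted p = 0.00626), CTGF (0.0311) and AMOTL2 (0.0269). Median UMIs per duct-like cell were 8856 to 10112 in WT fetuses at 120 days and 5383 to 9363 at term. Mitochondrial UMIs were 4.88% to 7.09% and 6.92% to 9.64%. The 10 endocrine markers in these cells summed to 321 to 466 CPM and 28.4 to 202 CPM, without overlap. The part of depth, mitochondrial share and endocrine markers in the age values was not tested. Between 80 and 120 days the control levels overlapped for all 5 genes, as for most genes, since only 23.2% of all genes did not overlap. Log2 differences ran from -0.15 to 0.44 for the 4 genes tested (edgeR adjusted p between 0.57 and 0.98, with 0.581% of all genes called).

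In the CFTR-/- animals mean CYR61 was 1766 CPM at 80 days, 1230 CPM in males at 120 days and 292 CPM at term (160 to 498 CPM). The naturally bred females at 120 days, at 473 and 474 CPM, lay inside the range of the lambs and below the cloned males. Mean ANKRD1 was 1151, 1032 and 874 CPM in the same 3 groups, with overlapping ranges, and the females at 120 days (79.6 and 85.9 CPM) lay below the lambs. At term 2 of the 3 lambs were naturally bred females, whereas the fetuses of the other 2 groups were male clones. In duct-like cells no gene of the whole table passed the test of a difference in the CFTR effect between 80 and 120 days or between 120 days and term in edgeR, where 782 and 1104 genes had an unadjusted p under 0.05. DESeq2 called 12 and 29. A change with age in the effect of CFTR loss on these genes was therefore not shown.

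AMOTL2 gave the 1 call among the 4 tested genes, in acinar-like cells. Over the 55 comparisons fitted in 7 other lineages, where 0% to 16.2% of all genes passed edgeR's test, the 4 genes passed in 1 of 174 tests. WT acinar-like cells held 29.0, 12.2 and 29.1 CPM at 120 days and 4.07, 10.1, 2.31 and 6.22 CPM at term, so every term lamb lay below every fetus, as held for 8.26% of all genes. AMOTL2 fell by 1.98 on the log2 scale (SE 0.44, edgeR adjusted p = 0.0049). In this comparison 16.2% of 15816 genes passed and 6.9% passed as lower, so the call of 1 of the 4 genes tested is read against a high background. The call was lost, at an adjusted p of 0.0733, when only the compared groups were fitted, and was kept without each animal in turn. Duct-like cells held a median of 16.3 times the AMOTL2 of acinar-like cells (n = 23), and their WT level was also lower at term. Whether free RNA or mixed droplets gave part of the acinar-like fall was not tested. In the other groups mean AMOTL2 of acinar-like cells was 41.7 ± 18.1 CPM in controls at 80 days (SD, n = 4), 71.5 CPM in CFTR-/- fetuses at 80 days, 55.3 CPM in CFTR-/- males and 8.41 CPM in CFTR-/- females at 120 days, and 5.89 CPM in CFTR-/- lambs at term.

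The rest of the pathway was read from lists of genes. The core kinases and scaffolds of the Hippo pathway had 14 members, and 1 of them rose with loss of CFTR in duct-like cells, at term, while none fell in any genotype comparison. Over all genes 1.99% rose at term. That gene was AMOT, a relative of AMOTL2 with the same scaffold role. AMOT was 18.9, 45.4 and 26.1 CPM in the CFTR-/- lambs and 8.36 to 14.2 CPM in WT lambs, a log2 rise of 1.42 (SE 0.36, edgeR adjusted p = 0.036). The list's median difference at term was 0.14, against -0.02 over all genes. In the list of YAP, TAZ, TEAD factors and their cofactors 0 of 8 passed in any genotype comparison, with medians between -0.24 and 0.18. Its highest members in duct-like cells were TEAD1 (212 CPM), WWTR1, the gene of TAZ (206 CPM), YAP1 (151 CPM) and VGLL4, a TEAD cofactor that competes with YAP (127 CPM). Only 2 of these 8 genes and 5 of the 14 kinases and scaffolds had their highest mean in duct-like cells, and the others had it in another lineage.

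Among other reported targets of YAP and TAZ, 19 of 21 listed names were in the files and 17 were tested in duct-like cells. TGFB2, which encodes a transforming growth factor beta ligand, rose at 80 days and at term, and MYOF, which encodes the membrane repair protein myoferlin, rose at term. None fell. Over all genes 0.468% rose at 80 days and 1.99% at term. TGFB2 was 41.3, 35.4 and 40.8 CPM in CFTR-/- fetuses and 6.57 to 14.0 CPM in controls at 80 days, a log2 rise of 2.17 (SE 0.48, edgeR adjusted p = 0.032). At term it was 40.4, 82.4 and 103 CPM in CFTR-/- and 8.56 to 39.4 CPM in WT lambs, a rise of 2.04 (SE 0.44, adjusted p = 0.016). MYOF was 61.0, 147 and 151 CPM in CFTR-/- and 4.18 to 40.9 CPM in WT lambs, a rise of 2.38 (SE 0.62, adjusted p = 0.044). At 80 days MYOF was 335, 272 and 298 CPM in CFTR-/- fetuses and 74.4 to 123 CPM in controls, groups that did not overlap, as held for 9.75% of all genes in that direction, with a log2 difference of 1.81 (SE 0.60, edgeR adjusted p = 0.18). The median of the list at term was 0.83, against -0.02 over all genes, and it was 0.21 at 80 days, 0.72 in males and -0.11 in females at 120 days. TGFB2 at 80 days lost its call without any 1 of the 7 animals of that age (adjusted p 0.067 to 0.125). At term MYOF lost its call without any 1 of 18 of the 23 animals, TGFB2 without CFTR-/- replicates 2 or 3, and AMOT, given above, without any 1 of 4 term lambs. The calls at term, those of AMOT and of NOV given next included, were lost when the term lambs were fitted alone (adjusted p 0.186 to 0.221).

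Of the 4 further CCN family genes in the files 2 were tested, and NOV (also called CCN3), a secreted relative of CYR61 and CTGF, rose at term, where 1.99% of all genes did. NOV was 20.7, 175 and 24.9 CPM in CFTR-/- and 4.12 to 15.1 CPM in WT lambs, a log2 rise of 3.23 (SE 0.78, edgeR adjusted p = 0.029). CFTR-/- replicate 2 carried much of it, and without that lamb the difference was 1.65 (adjusted p = 0.42). Of the ankyrin repeat relatives of ANKRD1, ANKRD23 was at 4.2 CPM and ANKRD2 at 0.9 CPM on average in duct-like cells, and the 1 that could be tested did not pass. None of the 5 LIM-domain relatives of AJUBA passed, the highest being TRIP6 (219 CPM), LPP (198), ZYX (194) and WTIP (4.5).

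Markers of mural cells were read in the duct-like cells beside these term values. The summed level of 9 mural markers in duct-like cells was 578 to 2313 CPM in CFTR-/- lambs and 35.1 to 210 CPM in WT lambs, and 169 to 873 CPM in CFTR-/- fetuses and 153 to 235 CPM in controls at 80 days. TAGLN, which encodes an actin-binding protein of smooth muscle, made up most of the sum in CFTR-/- lambs, at 510 to 2195 CPM against 5.02 to 87.7 CPM in WT lambs. CNN1, which encodes another, was at 29.1 to 81.4 and 0.778 to 13.4 CPM. Other smooth muscle and mural markers overlapped between the genotypes, with ACTA2 at 3.60 to 52.9 CPM in CFTR-/- and 0.836 to 43.1 CPM in WT lambs, MYH11 at 2.15 to 6.05 and 0.836 to 10.8 CPM, and NOTCH3 at 26.1 to 27.2 and 14.8 to 55.6 CPM. The pericyte marker PDGFRB was at 0 in 4 of 4 WT and 2 of 3 CFTR-/- lambs, and RGS5 was at 0 in 3 of 4 and 2 of 3. The 7 endothelial markers also did not overlap, with sums of 16.7 to 33.2 CPM in CFTR-/- and 1.87 to 12.9 CPM in WT lambs and 6 to 7 and 2 to 7 of them detected. The part of the mural, endothelial and duct markers in the ANKRD1, TGFB2, MYOF, NOV and AMOT values was not tested. Of the 8 genes driven by serum response factor, a transcription factor of the actin cytoskeleton, 0 passed in a genotype comparison, with a median difference of 0.73 at term, and the highest in duct-like cells were ACTG1 (3392 CPM), TPM1 (1827), ACTB (653) and VCL (170).

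CYR61 and CTGF also respond quickly to handling of cells, so early response genes were read beside them. None of 14 immediate early and heat shock genes passed in a genotype comparison of duct-like cells, and 1, the heat shock gene LOC494436 (HSPA1B), rose between the 80-day controls (WT and HZ) and WT at 120 days, by 4.08 on the log2 scale (edgeR adjusted p = 0.039), where 0.34% of all genes rose. It was 24.4 to 54.3 CPM in the controls and 140, 153 and 1220 CPM at 120 days, with WT replicate 3 far above the other fetuses. Without that fetus the difference was 2.12 (adjusted p = 0.37), and with WT alone as controls the call was lost (adjusted p = 0.515). The highest members were JUN (4056 CPM), FOS (3355), ATF3 (2781) and IER3 (1249). The summed level of all 14 genes was 18543 to 19014 CPM in the CFTR-/- females, 12444 to 19691 in WT and 9015 to 31630 in CFTR-/- males at 120 days. The part of these genes in the CYR61 and CTGF values was not tested. The sum of the 14 genes was 7965 to 16623 CPM in controls and 14829 to 21553 CPM in CFTR-/- fetuses at 80 days. At term it was 9460 to 25391 and 7517 to 17203 CPM in WT and CFTR-/- lambs. At 80 days the list's median log2 difference was 0.98.

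Likeness to ANKRD1 across cell types was read among the 9049 genes with a mean of at least 10 CPM in duct-like cells, a limit that itself favours genes used there. Over the 57 means of lineages and groups, Pearson's r of the log2 levels with ANKRD1 was 0.92 for GCNT3, which encodes a mucin core enzyme, 0.91 for VEPH1, 0.90 for CFTR itself, 0.89 for the transcription factor gene TFCP2L1 and 0.89 for VGLL1, a TEAD cofactor gene. CTGF stood at rank 523 (r = 0.54) and CYR61 (0.50), AMOTL2 (0.48), AJUBA (0.43) and YAP1 (0.39) lower. These points share libraries and depth, so the values describe likeness and carry no p.

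Across the 23 animals in duct-like cells, after the mean of each group was subtracted, the order was different. The genes most like ANKRD1 were LOC101119713 (r = 0.86), F3, the tissue factor gene and another reported YAP target (0.86), TSGA10 (0.81), the cell cycle kinase gene WEE1 (0.78) and VCL, the gene of the focal adhesion protein vinculin (0.78). Without the 2 animals farthest from the median of ANKRD1 (WT lamb replicate 3 and CFTR-/- replicate 1 at 80 days) these became 0.80, 0.81, 0.78, 0.73 and 0.71. CTGF followed ANKRD1 less closely (0.54, or 0.48 without those animals) and CYR61 less again (0.31 and 0.35). AMOTL2 (-0.06 and 0.10) and AJUBA (-0.13 and 0.16) had no stable direction. Among the other genes, CYR61 went with AMOTL2 (0.78) and with CTGF (0.49), and AMOTL2 with AJUBA (0.59). These animals differ in depth as well, and the values carry no p.

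**Figure D5:**
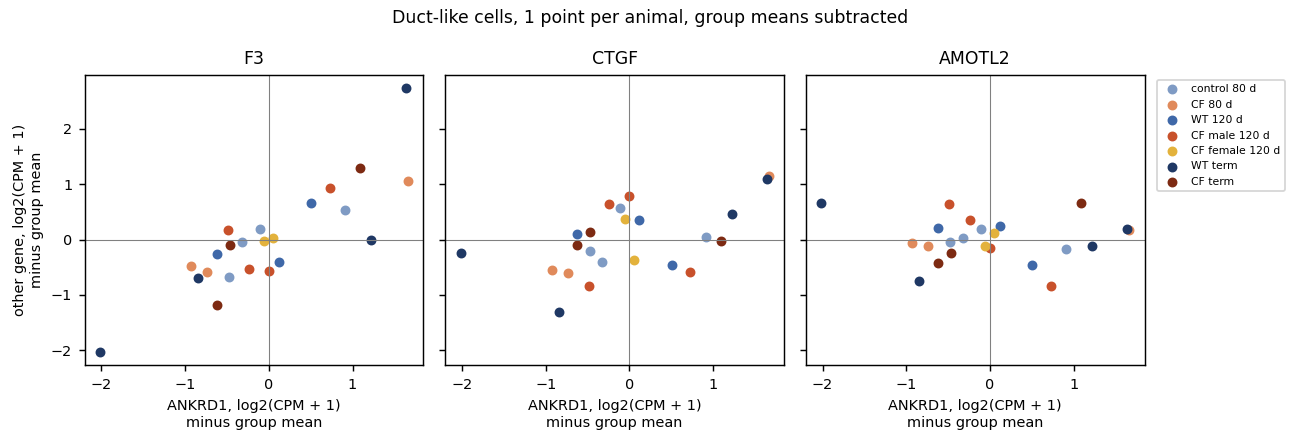
ANKRD1 against F3, CTGF and AMOTL2 in duct-like cells, as log2 levels with the mean of each group subtracted, with 1 point per animal (n = 23). F3 rises with ANKRD1 (r = 0.86), CTGF does so less closely (0.54), and AMOTL2 shows no direction (-0.06).

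F3 was named for its likeness to ANKRD1, so its values describe that likeness and support nothing further. It was 14.0 and 14.5 CPM in the CFTR-/- females at 120 days and 51.0, 349, 11.7 and 31.1 CPM in the WT lambs at term. The 19 other reported YAP and TAZ targets in the files, F3 included, summed to 737 to 810 CPM in the females against 2236 to 2819 CPM in WT and 2731 to 4621 CPM in CFTR-/- males at 120 days. Over all 23 animals THBS1 (946 CPM on average in duct-like cells) and GADD45A (594 CPM) had the highest means of these genes. Their part in the sum of the females was not read separately. The list's median log2 difference in the females was only -0.11. WT lambs at term ran from 631 to 2240 CPM and CFTR-/- lambs from 1460 to 2337 CPM.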

How the data were processed

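Single cells of enzymatically digested pancreas were captured with 10x Genomics 3′ chemistry. The authors counted UMIs with Cell Ranger 3.1.0 on the Oar_v4.0 assembly, and the deposited counts are raw, per gene and barcode, in 26 libraries. Libraries of 1 animal were added. Depth is given as UMIs per library and per cell in the report.

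The 5 genes, the pathway lists and the marker lists were chosen with earlier results of these data known, and the assignment rule after the files were seen. At each age a cell's marker levels were scaled to their 95th percentile, capped and averaged per list, and the cell took the top list if at least 3 of its markers were detected and it led by at least 0.1. Lineage names therefore mean likeness. UMIs were summed per animal and lineage and fitted over all groups in edgeR 4.0.16 (R 4.3.3; TMM, filterByExpr, glmQLFit, glmQLFTest, 7 groups, adjusted p of at most 0.05). Since edgeR gives no standard error here, each SE was derived from its F statistic. It is the absolute log2 difference divided by the square root of F. For thinned shares each cell was drawn down to 2000 UMIs (seed 88), leaving out 8548 shallower cells. Named genes are the 5, each list's genes past the threshold in a duct-like genotype comparison or otherwise its 4 highest, and the 5 most like ANKRD1 by each measure (mean of at least 10 CPM in duct-like cells). The CTGF, CYR61, AMOTL2 and AJUBA tests of genotype share controls where 1 WT group meets several CFTR-/- groups. LOC494436, F3 values by animal, TAGLN, CNN1, PDGFRB and RGS5 were named after their values were seen.

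On simulated counts for the 80-day duct-like comparison (13200 genes, 200 changed), 23.7% of log2 changes of 1 and 66.3% of changes of 2 were recovered, and 4.35% of calls were false. DESeq2 1.42.0, other gates, filters, scalings and sample sets were alternatives. Sequences were not analysed here.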

Additional observations from a re-analysis of the deposited data

Results flagged for a closer look

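1 of 15 groups of 4 animals examined in duct-like cells held an animal far from the rest. CYR61 was 128 CPM in the WT lamb replicate 4 at term and 397 to 431 CPM in the other WT lambs, so that the gap of the lowest lamb made up 0.885 of the group's range, above the 95% critical value of Dixon's test for 4 samples. Chance marks about 1 in 20 such groups. The same lamb had the lowest CTGF (66.9 CPM), AMOTL2 (104 CPM) and AJUBA (0.389 CPM) of the WT lambs, but not the lowest ANKRD1 (86.0 CPM).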

How the results depend on the processing

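The 4 genes that were tested in duct-like cells stayed without a call in edgeR under every alternative that was run other than leaving animals out. DESeq2 called CYR61 (-1.96), CTGF (-1.64) and AMOTL2 (-1.12) for WT at term against 120 days and CTGF (-2.40) for CFTR-/- females, and it called 348, 125, 157, 569, 311, 462 and 714 genes at 80 days, in males and females at 120 days, at term, for WT 120 against 80 days, for WT term against 120 days and for CFTR-/- males 120 against 80 days, with 12 and 29 for the differences between ages. The cause was not tested. With WT alone as controls at 80 days, AJUBA turned to -0.16 (80 days) and -0.33 (WT 120 against 80 days) and CYR61 at 80 days to -0.04, and 7, 8, 50, 102 and 0 genes were called for 80 days, WT 120 against 80 days, WT term against 120 days, CFTR-/- males between ages and males at 120 days. With the groups of a comparison fitted alone, AMOTL2 in acinar-like cells was -1.98 without a call, and 306 genes were called there. In duct-like cells that fit called 1266 genes at 80 days (116 in the fit over all groups), 10 in males and 2 in females at 120 days, 0 at term, 553 for WT 120 against 80 days and 5 for WT term against 120 days, and the cause was not tested. With 1 library per animal, 1 gene differed in the CFTR effect between 120 days and term. Replicate numbers did not pair the animals (correlations -0.079 to 0.219). A replicate block, which leaves out the females, turned AJUBA (-0.10) and CTGF (-0.08) for WT 120 against 80 days and CYR61 at 80 days (-0.06), and called 31, 149, 29, 35 and 67 genes at 80 days, at term, for both WT age steps and for CFTR-/- males. Thinning lowered the shares of cells with a UMI to 57.1% (CYR61), 38.0% (CTGF), 36.3% (AMOTL2) and 2.12% (AJUBA) in duct-like and to 21.1% (CTGF) and 41.6% (AMOTL2) in Schwann-like cells. As single animals were left out in turn, values ranged for AJUBA from -0.02 to 0.39 in males at 120 days (lowest without CFTR-/- male replicate 2) and from -0.14 to 0.46 for WT 120 against 80 days (below 0 without HZ replicates 2 or 4 or WT replicate 2 at 120 days), for ANKRD1 at 80 days from 0.44 to 2.30 and for CTGF there from -0.14 to 1.09 (both lowest without CFTR-/- replicate 1), for CTGF in WT term against 120 days from -2.13 to -1.38 (called without WT term replicate 2, adjusted p = 0.0349), and for CYR61 from -0.41 to 0.12 in males (above 0 without male replicate 3 or WT replicate 2), from -0.80 to 0.15 at term (above 0 without CFTR-/- replicate 2), from -0.70 to 0.39 at 80 days (below 0 without CFTR-/- replicate 1 or HZ replicate 2), from -0.41 to 0.12 for WT 120 against 80 days (above 0 without WT replicate 3 at 120 days or WT replicate 1 at 80 days) and from -2.20 to -1.72 for WT term against 120 days (called without CFTR-/- male replicate 3, adjusted p = 0.0366, and without CFTR-/- term replicate 1, 0.0495). Counts of called genes ranged from 20 (without CFTR-/- replicate 3) to 237 (without CFTR-/- male replicate 3 of 120 days) at 80 days, 0 to 34 (without male replicate 4) in males and 0 to 2 (without CFTR-/- term replicate 1) in females at 120 days, 88 (without CFTR-/- replicate 2) to 549 (without CFTR-/- replicate 1) at term, 23 to 225 for WT 120 against 80 days, 35 to 391 for WT term against 120 days, 19 to 556 for CFTR-/- males between ages, 0 to 1 and 0 to 12 for the differences between ages, and 1411 to 3642 in acinar-like cells. AMOT at term lost its call without CFTR-/- replicates 2 or 3 or WT replicates 1 or 3, MYOF without any 1 of 18 of the 23 animals, TGFB2 at term without CFTR-/- replicates 2 or 3 and NOV without CFTR-/- replicate 2 or WT replicate 1. LOC494436 lost its call without either CFTR-/- female, CFTR-/- replicate 2 or any control at 80 days, or WT replicate 3 at 120 days, and under the replicate block.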
